A study of Capra hircus with 30 samples.

Results

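The granulosa cells of medium follicles (LMG) were compared with those of small follicles (LSG) in the low fertility class of Ji'ning grey goats, which covers an early step of follicle growth in this class. The comparison used every library that the labels place in these groups, 5 LMG and 5 LSG libraries of the 30 in the series. The other 20 libraries are the large follicles of the same class (LLG) and the large, medium and small follicles of the high fertility class (HLG, HMG and HSG). Both groups share the breed, the fertility class and the preparation, in which ribosomal RNA was removed from total RNA, and no treatment is named for either. Per the study's methods, follicles came from several goats of each class. The granulosa cells of each follicle size were then divided into 5 samples, each with a small number of cells. Which goats or follicles a library holds is not given in the sources used here. The p-values therefore measure the spread between such samples, which need not stand for separate goats. The age of the goats is not given in the sources used here.

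Granulosa cells line the follicle, feed the oocyte through gap junctions and turn androgens from the theca into oestrogens. In small follicles they divide under the influence of oocyte factors, the activins and the insulin-like growth factors, and they carry receptors for follicle stimulating hormone (FSH). As the follicle reaches medium size they come to depend on FSH, make more aromatase and inhibin, and either go on to dominance or enter atresia, in which they die by apoptosis.

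Levels are FPKM, fragment numbers divided by the length of the feature and by the depth of the library. The table lists 20125 features, of which 17946 carry an NCBI gene number and 2179 an identifier starting with MXLOC. In the 10 libraries 17911 features were above 0 FPKM at least once and 2214 were listed at 0 throughout. By an estimate from the regular steps between low values, 1 fragment in 1 kb was worth 0.0615 to 0.0765 FPKM in LMG libraries and 0.069 to 0.0885 FPKM in LSG libraries. This corresponds to 13100000 to 16300000 and 11300000 to 14500000 fragments. A count of 0 therefore allows up to 3 fragments, or 0.184 to 0.229 FPKM in LMG and 0.207 to 0.265 FPKM in LSG for a feature of that length, and this limit covers counting error only. LSG-9 stood apart, with the fewest features above 0, the most at 10 FPKM or more and the fewest estimated fragments. Library counts and the differences of some genes are also given without it, where the fit allowed. A gene without such a value may depend on LSG-9 as well.

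Genes that define granulosa cells were mostly listed at 0 in both groups. FSHR, the receptor of FSH, was listed at 0 in all 10 libraries. CYP19A1, the aromatase that makes oestrogens, was above 0 in 2 LMG and 2 LSG libraries, at 0.14 and 1.0 FPKM in LMG-8 and LMG-9 and at 1.07 and 1.16 FPKM in LSG-5 and LSG-7. INHA, the alpha subunit of the inhibins, was above 0 in LSG-7 alone, at 3.20 FPKM, and AMH, the anti-Müllerian hormone, in LMG-5 alone, at 0.03 FPKM. Of the 11 granulosa cell markers in the table, 1 to 5 were above 0 in an LMG library and 1 to 5 in an LSG library, with summed levels of 0.97 to 3.95 and 0.11 to 5.42 FPKM. The labelled cell type could therefore not be read from these genes, and a gene listed at 0 may still have been transcribed.

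Markers of other cell types were as sparse. The 8 oocyte markers summed to 0.51 to 3.40 FPKM in LMG and 0.03 to 10.16 FPKM in LSG, where the highest value came from ZP3, a protein of the egg coat, at 10.16 FPKM in LSG-9. GDF9, the oocyte growth factor, was above 0 in 1 LMG and 3 LSG libraries, and BMP15, its partner, was listed at 0 in all 10. The 7 theca markers summed to 0.03 to 1.52 FPKM in LMG and 0.00 to 1.04 FPKM in LSG, the 8 immune markers to 0.00 to 2.83 and 0.00 to 6.24 FPKM, and the 6 endothelial markers to 0.05 to 2.35 and 0.00 to 0.77 FPKM. The 3 erythroid markers reached at most 0.30 FPKM in LMG and 2.79 FPKM in LSG, while the 6 luteal markers summed to 0.00 to 3.92 and 0.28 to 8.19 FPKM. The ranges of the groups overlapped for all 7 marker lists, and the part of other cells in the results below was not tested.

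Granulosa cells of medium follicles had more features above 0 FPKM and fewer at high levels than those of small follicles, but neither difference passed the adjusted test. There were 8349, 6414, 8523, 9256 and 6330 features above 0 in LMG-5, LMG-7, LMG-8, LMG-9 and LMG-10, and 6156, 4082, 5999, 3576 and 8178 in LSG-5, LSG-7, LSG-8, LSG-9 and LSG-10. The groups overlapped, since LSG-10 exceeded LMG-7 and LMG-10. The means of 7774 ± 1325 and 5598 ± 1838 (SD, n = 5 each) differed by 2176 features (two-sided exact permutation test, p = 0.0397, adjusted 0.0529 over 4 such values, smallest possible p 0.00794). Without LSG-9 the difference was 1671 features. The estimated depth in fragments was also higher in LMG, where all libraries but LMG-5 exceeded every LSG library, and its part in the count was not tested.

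**Figure D1:**
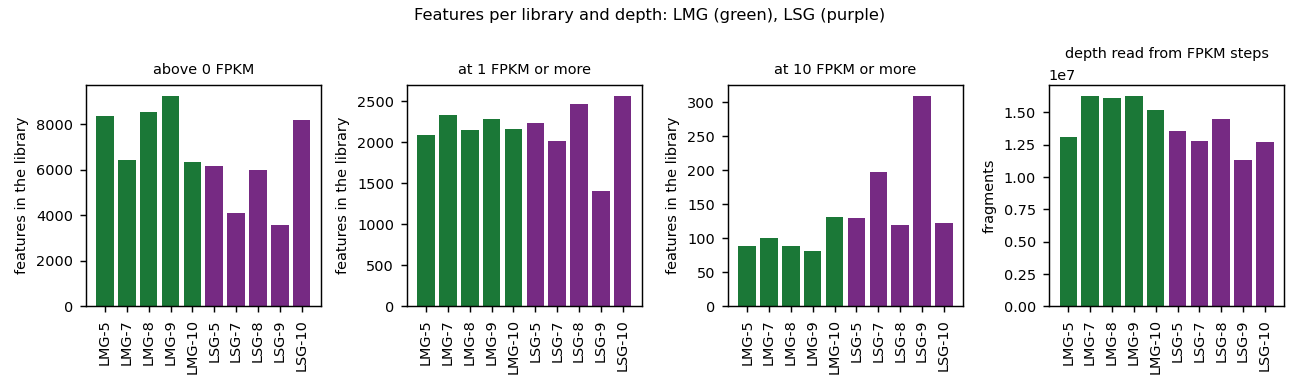
Number of features above 0 FPKM, at 1 FPKM or more and at 10 FPKM or more, and the depth in fragments read from the steps of the low values, with 1 bar for each LMG (green) and LSG (purple) library. LMG-9 has the most features above 0 (9256) and LSG-9 the fewest (3576), while LSG-9 has the most at 10 FPKM or more (310).

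At 1 FPKM or more LMG libraries had 2207 ± 101 features and LSG libraries had 2142 ± 462 (SD, n = 5 per group). This difference of 65.2 features was far smaller than the spread between libraries (exact permutation test, p = 0.849, adjusted 0.849), and without LSG-9 it turned to -118 features. With the limit at 0.5 FPKM the difference was 687 features (exact permutation test, adjusted p = 0.183). The spread itself was unlike, with 2088 to 2336 features in LMG and 1407 to 2570 in LSG. At 10 FPKM or more LMG libraries had 89, 100, 89, 82 and 131 features and LSG libraries 130, 197, 119, 310 and 123. LMG-10 alone reached the range of the LSG libraries. The difference in means was -77.6 features (exact permutation test, p = 0.0317, adjusted 0.0529), and -44.0 without LSG-9.

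The features without an NCBI gene number took 72.6% to 73.3% of the FPKM in LMG and 72.9% to 74.9% in LSG, a difference of -0.804 percentage points (exact permutation test, p = 0.0238, adjusted 0.0529). The FPKM summed over all features was also lower in LMG. It was 55094, 63711, 61927, 59377 and 68707 in the LMG libraries and 63895, 79111, 70052, 74325 and 78526 in the LSG libraries, and LSG-5 was the sole small follicle library below a medium follicle library, LMG-10. The difference of -11419 FPKM, a value added after the totals were seen, had a p of 0.0159 (exact permutation test, not adjusted). Sums of FPKM therefore sit on a lower total in LMG. The values of genes at high levels, of features seen throughout and of ribosomal genes are given again after the libraries were scaled to the same total over features with an NCBI gene number. That total takes in genes whose names start with LOC. Other genes with a symbol that were seen throughout were a small part of it, at 583.55 to 656.01 FPKM in LMG.

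Levels were then compared feature by feature with limma on log2(FPKM + 1) for the 6058 features above 0.5 FPKM in at least 5 of the 30 libraries. Each SE and p of this fit rests on the spread within all 6 groups of the 30 libraries, not within LMG and LSG alone. No feature passed an adjusted p of 0.05 (0 of 6058, 0%), and the lowest adjusted p was 0.0999. An unadjusted p under 0.05 was found for 311 features (5.13%), 180 higher in LMG (2.97%) and 131 lower (2.16%). A Fisher exact test on the libraries above 0 also called 0, but it had no room to call any. Its smallest possible p of 0.00794 was reached by 25 features, too few to pass the adjustment over all 20125 features. Its unadjusted p was under 0.05 for 295 features above 0 in more LMG libraries and 9 in more LSG libraries. Every LMG library lay above every LSG library for 52 features (0.858%) and below for 13 (0.215%). The log2 difference was above 0 for 54.7% of the features tested, with a median of 0.05. With 0.1 added to FPKM in place of 1 the median of all features was 0.37, so that single differences are read against it, and after scaling to the same total it was 0.09. By size alone, with no test, 913 of 3524 features with a group mean of at least 1 FPKM were at least 2-fold higher in LMG (25.9%) and 1594 at least 2-fold higher in LSG (45.2%). The genes below are those with the lowest p, and their values describe these libraries without a call.

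Among the 12 genes with the lowest p on the side of medium follicles, CDCA7L, which codes for a MYC-binding nuclear protein, was above 0 in every LMG and in no LSG library. It was at 0.23, 1.03, 0.80, 2.66 and 3.41 FPKM in LMG-5, LMG-7, LMG-8, LMG-9 and LMG-10 and was listed at 0 in all 5 LSG libraries. The groups did not overlap, and the difference was 1.24 ± 0.29 (SE) on the log2(FPKM + 1) scale, where the size depends on the added 1 because the LSG side is at 0 (limma, adjusted p = 0.134). In the high fertility class CDCA7L was above 0 in 0 HMG and 1 HSG libraries. C22H3orf62 had the lowest p of this side among genes with a symbol. It was at 0.21, 2.99, 1.28, 1.56 and 7.93 FPKM in the LMG libraries and had a single value above 0 in LSG, 0.59 FPKM in LSG-7. Only LMG-5 fell below that value, and the difference was 1.46 ± 0.32 (SE; limma, adjusted p = 0.0999).

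CCDC115, a factor in the assembly of the vacuolar proton pump, was at 0.47, 3.44, 2.81, 2.41 and 3.65 FPKM in LMG and at 0.07 FPKM in LSG-8, with the other LSG libraries listed at 0. All LMG libraries were above all LSG libraries, with a difference of 1.71 ± 0.44 (SE; limma, adjusted p = 0.295). CLDN11, a claudin of tight junctions, was above 0 in LMG-8, LMG-9 and LMG-10, at 2.82, 2.75 and 3.65 FPKM, and was listed at 0 in the other 7 libraries. GPR1, a receptor of the adipokine chemerin, was above 0 in 4 LMG libraries, at 0.59 to 2.53 FPKM, and in 0 LSG libraries. HILPDA, a lipid droplet protein induced by low oxygen, was at 2.40, 2.72, 0.80 and 1.02 FPKM in LMG-5 to LMG-9 and at 0 in LMG-10, against a single LSG value of 0.11 FPKM in LSG-5.

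NDC1, a membrane protein of the nuclear pore, was above 0 in 5 LMG libraries, at 0.25 to 3.0 FPKM, and in 0 LSG libraries. SHTN1, a protein of axon outgrowth, was above 0 in 4 LMG libraries, at 1.66 to 4.95 FPKM, and in 3 LSG libraries, at 0.02 to 0.69 FPKM. HMGB3, a DNA-binding protein of the high mobility group, reached 4.74 and 7.73 FPKM in LMG-5 and LMG-10 and was above 0 in LSG-10 alone among the small follicles, at 0.81 FPKM. HECTD2 (a ubiquitin ligase), SPATC1L and MALL (a protein of membrane rafts) make up the rest of this side, with 5, 4 and 4 LMG libraries above 0 and 1 LSG library each. The 12 genes together had 52 of 60 LMG values above 0 and 10 of 60 LSG values, which the choice by p itself favours. Over all features tested, 71.4% of LMG and 53.7% of LSG values were above 0.

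**Figure D2:**
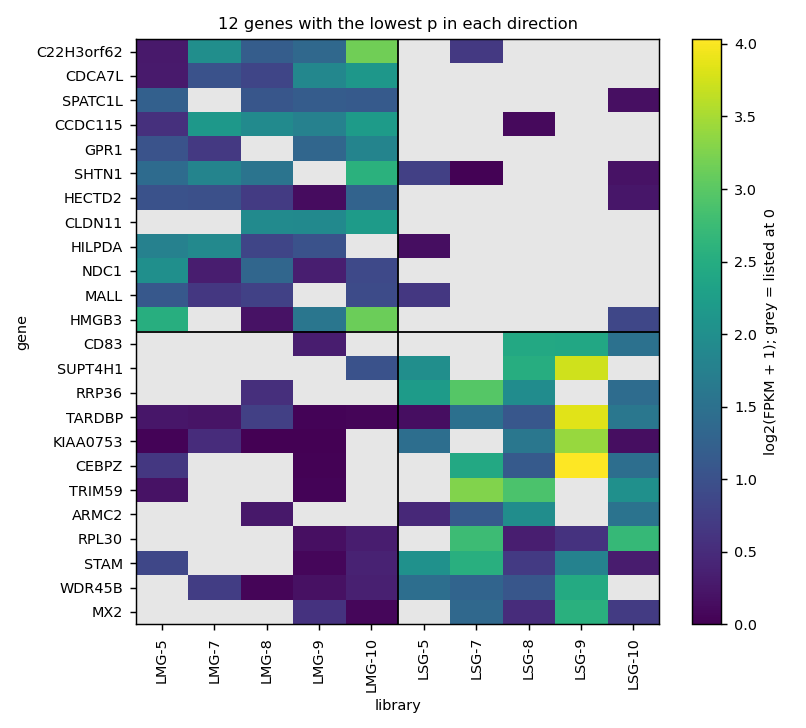
Levels of the 12 genes with the lowest limma p on each side, as log2(FPKM + 1) in the 5 LMG and 5 LSG libraries, with grey for values listed at 0. The upper 12 genes are grey in most LSG libraries. The lower 12 have 28 of 60 LMG values and 47 of 60 LSG values above 0. Over all features tested, 71.4% of LMG and 53.7% of LSG values were above 0. The choice by p favours such differences.

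On the side of small follicles the lowest p among genes with a symbol belonged to CD83, a surface protein of activated antigen-presenting cells. It was listed at 0 in 4 LMG libraries and at 0.25 FPKM in LMG-9, and was at 4.38, 4.35 and 1.85 FPKM in LSG-8, LSG-9 and LSG-10 with 0 in LSG-5 and LSG-7. The groups overlapped through these values of 0, and the difference was -1.21 ± 0.35 (SE; limma, adjusted p = 0.389). The immune markers did not follow CD83 in every library, since LSG-9, with 4.35 FPKM of CD83, was listed at 0 for all 8 of them.

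TARDBP, an RNA-binding protein that acts in splicing, was above 0 in all 10 libraries, at 0.18, 0.16, 0.69, 0.03 and 0.04 FPKM in LMG and at 0.11, 1.80, 1.14, 13.50 and 2.04 FPKM in LSG. LSG-5 was the sole small follicle library within the range of the medium follicles, and the difference was -1.38 ± 0.42 (SE; limma, adjusted p = 0.389). RRP36, which takes part in the processing of ribosomal RNA, was at 0.45 FPKM in LMG-8 and 0 in the other LMG libraries, against 3.61, 6.80, 2.88, 0 and 1.69 FPKM in LSG. CEBPZ, a factor of ribosome assembly and transcription, was at most 0.57 FPKM in LMG and reached 4.42, 1.20, 15.35 and 1.73 FPKM in LSG-7 to LSG-10. SUPT4H1, a subunit of a transcription elongation factor, was at 1.03 FPKM in LMG-10 alone and at 2.96, 4.72 and 12.35 FPKM in LSG-5, LSG-8 and LSG-9.

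STAM, an adaptor in the sorting of receptors in endosomes, was above 0 in all 5 LSG libraries, at 0.24 to 4.83 FPKM, and in 3 LMG libraries, at 0.05 to 0.82 FPKM. WDR45B, a protein of autophagy, was at 1.12 to 4.52 FPKM in 4 LSG libraries and at 0.04 to 0.66 FPKM in 4 LMG libraries. RPL30, a protein of the large ribosomal subunit, was at 5.81 and 5.51 FPKM in LSG-7 and LSG-10 and did not exceed 0.25 FPKM in LMG. TRIM59, a ubiquitin ligase, was at 8.59, 6.38 and 3.05 FPKM in LSG-7, LSG-8 and LSG-10 and at most 0.15 FPKM in LMG. KIAA0753 (a protein of the centriole), ARMC2 (known for the sperm tail) and MX2 (an interferon-induced GTPase) complete the list, each above 0 in 4 LSG libraries. LSG-9 held the highest of the 10 values for SUPT4H1, TARDBP, KIAA0753, CEBPZ, WDR45B and MX2. Without it the log2 difference went from -1.38 to -0.82 for TARDBP, from -1.68 to -1.12 for CEBPZ and to -0.70 for WDR45B, and the other 3 and CD83 were too seldom above 0.5 FPKM in the remaining libraries to be tested.

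The same genes were examined in the high fertility class, where HMG and HSG share no library with the low fertility groups. For the 12 genes on the side of medium follicles, the log2 difference was 0.56 to 1.71 in the low fertility class and -0.22 to 0.43 between HMG and HSG, with 8 above 0 and 4 below. For the 12 genes on the side of small follicles it was -1.68 to -0.89 and -0.21 to 0.25, with 9 above 0 and 3 below in the high fertility class. Since the genes were chosen by their low fertility values, smaller values elsewhere come with the choice. The difference between the classes was tested for all features, and 0 of 6058 passed (0%; limma interaction, lowest adjusted p = 0.870), with an unadjusted p under 0.05 for 332 (5.48%). Of these, 171 (2.82%) were above 0 and 161 (2.66%) below. HMG against HSG gave 0 calls as well, and 308 features (5.08%) at an unadjusted p under 0.05, 207 (3.42%) higher and 101 (1.67%) lower in HMG.

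Presence in every library of a group was counted next. There were 25 features (0.124%) above 0 in all 5 LMG and in 0 LSG libraries, 17 of them with a gene symbol, and 0 (0%) the other way. More features were above 0 in more LMG libraries (10013, 49.8%) than in more LSG libraries (4043, 20.1%), so that counts of this kind lean to LMG for the whole table. The 25 features became 35 without LSG-9 and 74 without LSG-10, while the count the other way was between 0 and 2 with any single library left out.

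The most even of these genes was ZBTB3, a zinc finger protein of the BTB family, at 0.85, 0.66, 0.82, 0.59 and 0.52 FPKM in the LMG libraries. GTF2H3, a subunit of the general transcription factor TFIIH, was at 0.96, 2.36, 0.70, 1.74 and 0.29 FPKM. RRN3, which brings RNA polymerase I to the ribosomal RNA genes, was at 0.36, 2.52, 1.03, 0.25 and 3.90 FPKM. All 3 were listed at 0 in every LSG library, and none of the 3 was absent from the high fertility class, where they were above 0 in 4, 2 and 4 HMG and in 2, 3 and 3 HSG libraries. ZFP36L2, a protein that promotes the decay of messenger RNA, was at 0.24 to 1.21 FPKM in LMG, the sodium and proton exchanger SLC9A3 at 0.24 to 0.62 FPKM, and the lipid flippase ATP10D at 0.09 to 1.52 FPKM. Several of these levels are near the limit that 3 fragments set, so absence from LSG is not shown by them.

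The genes with a symbol that had the highest means were seen in all libraries. High values also occurred in some libraries only, as for CEBPZ, at 15.35 FPKM in LSG-9 and 0 in LSG-5. The 8 with the highest mean were PXMP4, SGCB, EGFR, NIPSNAP1, BRI3BP, PEX2, CDKN1A and NIF3L1, each above 0 in all 10 libraries. Names starting with LOC were not counted as symbols. Features without a symbol reached far higher values, with library maxima from 4595.92 FPKM (LMG-5) to 7133 FPKM (LSG-7). EGFR, the receptor of epidermal growth factor, through which the ovulatory signal acts in granulosa cells, was at 40.55, 37.25, 41.00, 43.36 and 38.98 FPKM in LMG and at 38.01, 61.40, 58.76, 66.65 and 59.55 FPKM in LSG. LSG-5 lay among the medium follicles and the other small follicle libraries above all of them. The means were 40.2 ± 2.29 and 56.9 ± 11.0 FPKM (SD, n = 5 each), and the log2 difference was -0.47 ± 0.50 (SE, limma, adjusted p = 0.998). This SE takes in the spread of the other groups, such as 35.75 to 76.79 FPKM in HMG, and not that of LMG and LSG alone.

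CDKN1A, an inhibitor of cyclin-dependent kinases, was at 19.77, 14.69, 10.24, 19.03 and 11.20 FPKM in LMG and at 23.53, 11.82, 28.81, 60.64 and 16.77 FPKM in LSG. The groups overlapped and LSG-9 was the highest library, with a log2 difference of -0.70 ± 0.79 (SE; limma, adjusted p = 0.998), or -0.38 without that library. NIF3L1 was at 12.52 to 18.41 FPKM in LMG and 18.00 to 34.92 FPKM in LSG, and BRI3BP at 24.11 to 35.03 and 35.22 to 72.05 FPKM, the latter without overlap as deposited and with overlap after scaling (25.17 to 37.40 and 29.25 to 63.84). PXMP4, a peroxisomal membrane protein, was at 67.9 ± 9.49 and 82.1 ± 9.61 FPKM and SGCB, a subunit of the sarcoglycan complex, at 53.8 ± 6.17 and 63.6 ± 6.59 FPKM in LMG and LSG (SD, n = 5 each). PEX2, which acts in the import of peroxisomal proteins, was nearly level at 23.7 ± 6.30 and 23.4 ± 10.2 FPKM, and so was the mitochondrial protein NIPSNAP1 at 38.5 ± 5.71 and 42.4 ± 11.6 FPKM. None of the 8 passed the test, in which the spread within all 6 groups counts. All of them except PEX2 were lower in LMG on the log2 scale, but scaling to the same total made these differences smaller. It took PXMP4 from -0.27 to -0.07, SGCB from -0.24 to -0.04 and EGFR from -0.47 to -0.27, and turned NIPSNAP1 from -0.11 to 0.08. After scaling the groups overlapped for all 8 genes.

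**Figure D3:**
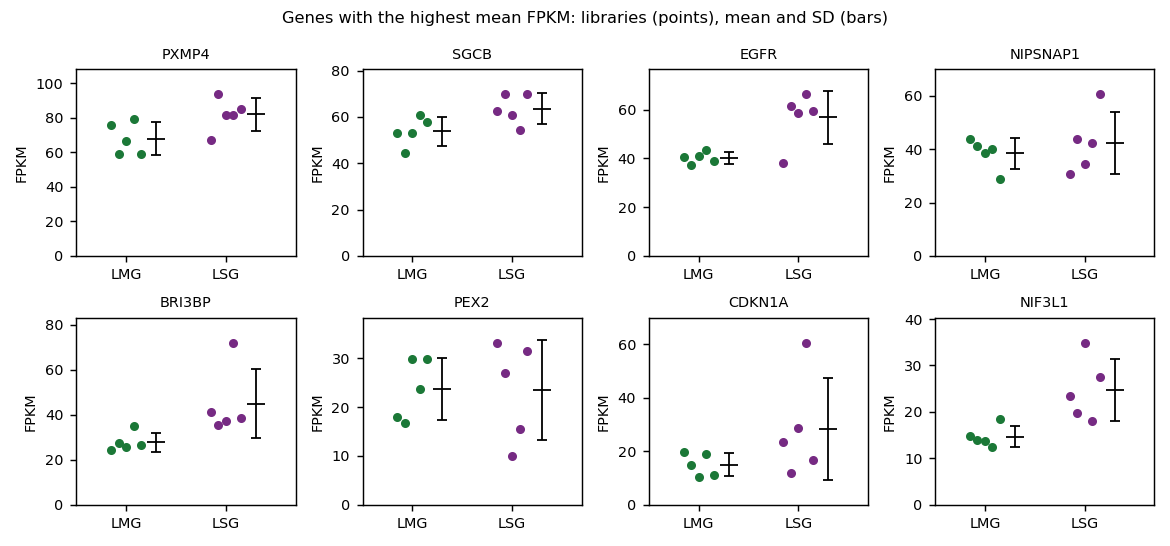
FPKM of the 8 genes with the highest mean among those with a symbol, names starting with LOC left out. There is 1 point for each LMG (green) and LSG (purple) library, and the mean with its SD beside them. BRI3BP is the gene whose groups do not overlap as deposited (LMG up to 35.03, LSG from 35.22), and LSG-9 holds the highest value of BRI3BP (72.05) and CDKN1A (60.64).

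Most features seen throughout were also lower in LMG as deposited, and less so after scaling. A set of 426 features was above 0 in all 10 libraries and held 88.4% to 90.4% of the FPKM of a library. Of these, 297 (69.7%) were lower in LMG, with a median log2 difference of -0.20. Of the 421 tested, 9 had an unadjusted p under 0.05 (limma), all lower. This is a smaller share than the 5.13% of all features tested, and about the 2.16% that were lower among those. After scaling to the same total the median was -0.07 and 258 were lower. The genes of the 426 features with a span had a median span of 51.3 kb, against 19 kb for all features with a span and 9.59 kb for those listed at 0 throughout, while the 74 of them with a mean of at least 10 FPKM had 6.33 kb. The 295 of them with a gene symbol had a median of -0.18, or -0.09 after scaling, and summed to 583.55 to 656.01 FPKM in LMG and 719.22 to 1096.5 FPKM in LSG.

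Gene lists of follicle biology were described by their counts. The 18 lists held 396 genes, of which 359 were in the table, 157 were tested and 0 passed, with an unadjusted p under 0.05 for 3 (against 5.13% of all features tested). These were CTNND1, a catenin of cell contacts, at 0.01, 0.03, 0.16, 0.44 and 0 FPKM in LMG and 0, 1.69, 0.87, 3.48 and 0 FPKM in LSG (log2 difference -0.74, or -0.42 without LSG-9), PTX3, a protein of the cumulus matrix, at 0.24 FPKM in LMG-5 and 1.67, 2.43 and 2.85 FPKM in LSG-5, LSG-7 and LSG-10, and STRBP, an RNA-binding protein, at 0.65, 1.60, 1.06 and 1.68 FPKM in 4 LMG libraries against at most 1.0 FPKM in LSG. For all lists but those of the NOTCH pathway, ribosomal proteins and abundant genes, more members were above 0 in more LMG than in more LSG libraries, as in the whole table (49.8% against 20.1%).

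**Figure D4:**
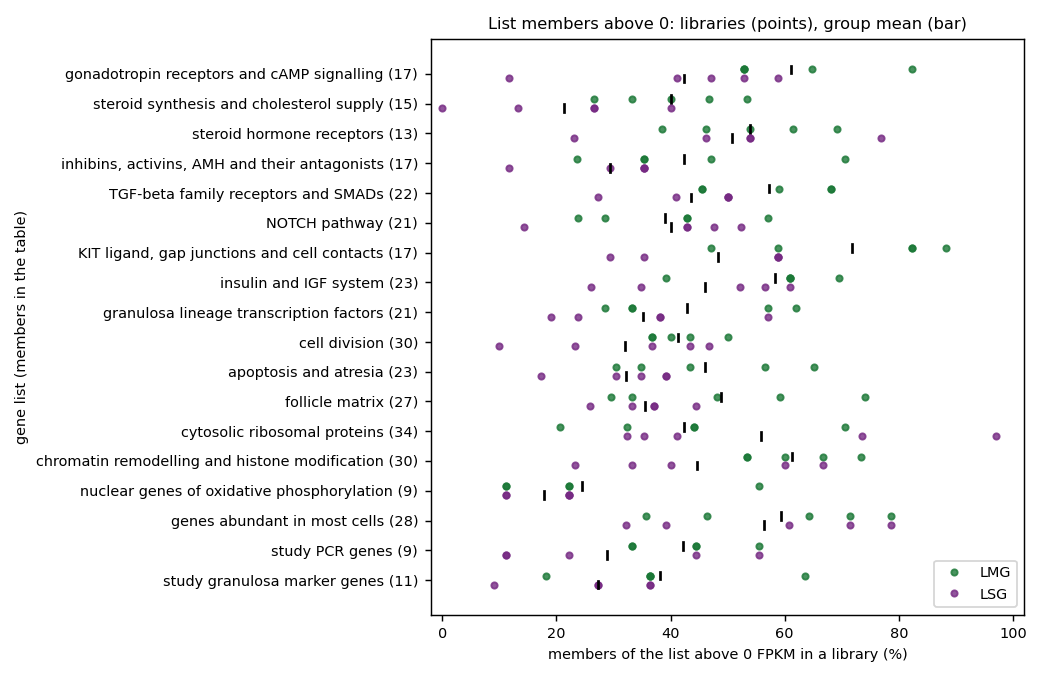
Share of the members of each gene list above 0 FPKM, with 1 point for each LMG (green) and LSG (purple) library and a bar at the group mean, and the number of members in the table in brackets. The mean is larger in LMG for all lists except the NOTCH pathway (39% against 40%) and the ribosomal protein list (42.4% against 55.9%), and the points of the groups overlap in every list.

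Hormone signalling genes were above 0 more often than the table as a whole, but at low levels. The gonadotropin and cAMP list was above 0 in 61.2% of the LMG values and 42.4% of the LSG values. All features were at 38.6% and 27.8%. The list summed to 2.70 to 6.41 FPKM in LMG and 2.73 to 9.37 FPKM in LSG. Of the 17 genes of gonadotropin receptors and cAMP signalling, 11 were above 0 in more LMG libraries and 2 in more LSG libraries, and the 8 tested had a median log2 difference of 0.02, which took either sign over the alternatives (-0.49 to 0.22). CREB1, the transcription factor that cAMP activates, was above 0 in all 10 libraries, at 0.40 to 1.07 FPKM in LMG and 0.68 to 2.54 FPKM in LSG (log2 difference -0.72 ± 0.53, SE). RIC8B, a chaperone of the stimulatory G protein, was also above 0 throughout, at 0.22 to 1.46 and 0.03 to 2.83 FPKM. LHCGR, the receptor of luteinizing hormone, was above 0 in LMG-9 alone, at 0.36 FPKM.

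Genes of steroid synthesis and cholesterol supply were above 0 in 40% of the LMG values and 21.3% of the LSG values, against 38.6% and 27.8% for all features. In more LMG libraries were 10 of 15 members, and in more LSG libraries 1. FDX1, the electron carrier of side chain cleavage, was at 1.54, 0, 1.01, 1.39 and 7.76 FPKM in LMG and at 2.63 and 1.21 FPKM in LSG-8 and LSG-10. LRP8, a lipoprotein receptor, was above 0 in 5 LMG libraries, at 0.11 to 3.30 FPKM, and in 3 LSG libraries, at 0.10 to 0.61 FPKM. STAR, which carries cholesterol into the mitochondrion, was above 0 in 2 LMG libraries and 1 LSG library, at 1.44, 0.77 and 1.93 FPKM. LSG-9 was listed at 0 for all 15 genes of this list. Among the steroid hormone receptors, NR3C1, the glucocorticoid receptor, was at 0 to 2.02 FPKM in LMG and 0 to 6.29 FPKM in LSG, with the highest value in LSG-9. Its log2 difference was -0.52, or -0.14 without that library.

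The inhibin, activin and antagonist list had 11 of 17 members in more LMG and 3 in more LSG libraries. BAMBI, a decoy receptor of the TGF-β family, was at 0.48, 3.39, 0.15, 1.56 and 1.53 FPKM in LMG and at 0.26 FPKM in LSG-5, with the other LSG libraries at 0. It was too seldom above 0.5 FPKM in the series to be tested. GREM1, an antagonist of the bone morphogenetic proteins, leaned the other way in presence, with 3 LMG and 5 LSG libraries above 0. TGFB2, a ligand of the family, was at 0.04 to 1.52 FPKM in LMG and 0 to 2.16 FPKM in LSG. Of the 22 receptors and SMADs, 12 were above 0 in more LMG and 3 in more LSG libraries, and BMPR2 and BMPR1B, receptors for oocyte factors, were above 0 in 5 LMG and 4 LSG libraries each. SMAD4, the shared mediator of the family, was above 0 in 4 LMG and 5 LSG libraries.

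The NOTCH pathway, through which the oocyte and neighbouring granulosa cells signal, was a list without the lean to LMG, with 7 of 21 members in more LMG and 10 in more LSG libraries. HEY2, a target of NOTCH, was at 0.59, 0.21, 1.08, 2.65 and 1.93 FPKM in LMG and at 0.24, 1.37 and 0.02 FPKM in LSG-5, LSG-8 and LSG-10 (log2 difference 0.77 ± 0.47, SE). Its relative HEY1, named after its values were seen, was above 0 in LMG-8 alone among the medium follicles, at 0.13 FPKM, and in 4 LSG libraries, at 0.14 to 4.99 FPKM (log2 difference -1.12 ± 0.57, SE). Neither difference passed the test (limma, unadjusted p = 0.112 and 0.0571). NOTCH2 was above 0 in 4 libraries of each group, at 0.69 FPKM or less.

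Genes of contacts between cells were above 0 in 71.8% of the LMG values and 48.2% of the LSG values, against 38.6% and 27.8% for all features. In more LMG libraries were 12 of 17 members, and in more LSG libraries 1, KITLG. KITLG, the ligand through which granulosa cells act on the oocyte, was at 0.28, 2.19, 0.35, 1.88 and 0 FPKM in LMG and at 0.84, 0.04, 0.04, 0.11 and 0.92 FPKM in LSG. GJA1, the main gap junction protein of granulosa cells, was at 0.02 to 0.87 FPKM in LMG and 0 to 5.75 FPKM in LSG, with the highest value in LSG-9. Its log2 difference was -0.67, or -0.26 without that library. CTNNB1, the β-catenin, was at 0.04 to 1.84 FPKM in LMG and 0.03 to 3.11 FPKM in LSG. In the insulin and IGF system 13 of 23 members were above 0 in more LMG and 4 in more LSG libraries. IGF1 was at 0.14 to 3.85 FPKM in LMG and 0 to 5.15 FPKM in LSG.

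Transcription factors of the granulosa lineage were above 0 in more LMG libraries for 10 of 21 genes and in more LSG libraries for 6. WT1, a factor of early follicles, was above 0 in 2 LMG and 5 LSG libraries, at 0.76 and 1.27 FPKM in LMG-8 and LMG-10 and at 0.07 to 2.76 FPKM in LSG. FOS was likewise above 0 in 2 LMG libraries, at 1.47 and 0.14 FPKM, and in 5 LSG libraries, at 0.03 to 10.85 FPKM. FOXO3, which restrains follicle growth in the oocyte, was at 0 to 1.35 FPKM in LMG and 0 to 1.72 FPKM in LSG. FOXO1, which granulosa cells express strongly before luteinization, was among the 5 list members with at least 4 more LMG than LSG libraries above 0, all named here after their values were seen. It was at 1.84, 0.02, 0.10, 0.05 and 0.18 FPKM in LMG and 0 in every LSG library, where only LMG-5 held more than a trace. The other 4 were BAMBI, PRKACB (a catalytic subunit of the cAMP kinase), SMAD7 (an inhibitor of TGF-β signalling) and OCLN (a tight junction protein). A difference of this size was thus found for 5 of the 359 list genes towards LMG and for 0 towards LSG. Of all 20125 features, 295 showed it towards LMG and 9 towards LSG. The 5 genes therefore go with the lean of all features to LMG and do not set these lists apart.

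Cell division genes were above 0 in 41.3% of the LMG values and 32% of the LSG values, near the 38.6% and 27.8% of all features. Of 30 members, 15 were above 0 in more LMG and 6 in more LSG libraries, and 11 to 15 members were above 0 in an LMG library against 3 to 14 in an LSG library. MKI67, a marker of dividing cells, was above 0 in 4 libraries of each group, at up to 0.22 FPKM in LMG and up to 0.60 FPKM in LSG. CCND2, the cyclin that FSH induces in granulosa cells, was at 0.93, 0.11, 0.44, 0.36 and 0.51 FPKM in LMG and at 0.03, 0, 0.03, 0 and 0.09 FPKM in LSG. Every LMG library was above every LSG library, with a log2 difference of 0.49 ± 0.25 (SE, limma, unadjusted p = 0.0583). However, the LSG values and that of LMG-7 were below what 3 fragments give in a feature of 1 kb (0.184 FPKM in LMG-7). The limit is lower for a longer feature. CDK6, a partner of the D cyclins, was at 0.24 to 1.97 and 0 to 1.65 FPKM.

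Genes of apoptosis and atresia had 10 of 23 members in more LMG and 2 in more LSG libraries. FAS, the death receptor, was above 0 in all 10 libraries, at 0.12 to 3.96 FPKM in LMG and 0.05 to 1.79 FPKM in LSG, and XIAP, an inhibitor of caspases, was at 0.05 to 4.62 and 0 to 4.01 FPKM. CASP8, the caspase below FAS, was at 0.08 to 1.53 and 0 to 1.18 FPKM. In the follicle matrix list 15 of 27 members were above 0 in more LMG and 6 in more LSG libraries. HAS2, which makes hyaluronan, was at 0.28, 0.21, 2.31, 2.26 and 0.48 FPKM in LMG and at 0.41, 0.51, 1.20, 0 and 0.07 FPKM in LSG, and VCAN, the proteoglycan versican, at 0.01 to 1.61 and 0 to 0.77 FPKM. The ranges overlapped for each of these genes.

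Genes of ribosomal proteins and of the elongation factors EEF1A1 and EEF2 leaned towards small follicles. Their summed level was 39.02, 25.79, 19.20, 33.47 and 32.03 FPKM in LMG and 64.08, 62.47, 48.83, 44.35 and 54.56 FPKM in LSG. Every LMG library was below every LSG library as deposited. After scaling to the same total the ranges were 19.90 to 45.25 and 39.30 to 65.47 FPKM and overlapped. Without RPL7 and EEF1A1, the members with the highest mean, the ranges overlapped as deposited, at 11.53 to 28.50 and 26.41 to 51.43 FPKM. Of the 21 members tested 18 were lower in LMG, with a median log2 difference of -0.40 against 0.05 for all features tested, and 0 had an unadjusted p under 0.05. The median kept its sign in all 18 alternatives of the fit, between -0.61 and -0.26.

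In presence, 16 of the 34 genes were above 0 in more LSG libraries and 5 in more LMG libraries, where the table as a whole had 20.1% and 49.8%. This count rested on LSG-10, in which 33 of the 34 genes were above 0, since without that library 15 genes had a larger share of LSG libraries above 0 and 16 a larger share of LMG libraries. EEF1A1 was at 2.08, 1.36, 2.23, 2.37 and 0.63 FPKM in LMG and 4.09, 1.61, 4.62, 11.90 and 5.39 FPKM in LSG, with LSG-7 within the range of the medium follicles (log2 difference -1.12 ± 0.83, SE, or -0.82 without LSG-9). RPL7, of the large subunit, was at 8.44, 2.45, 2.62, 5.55 and 19.87 FPKM in LMG and 21.91, 9.43, 8.60, 6.04 and 3.46 FPKM in LSG. RPL5 was at 0.42 to 2.86 FPKM in LMG and 0 to 15.85 FPKM in LSG, with the highest value in LSG-9. Its log2 difference was -0.76, or -0.20 without that library. RPS6, of the small subunit, was at 0.07 to 4.27 and 0 to 4.35 FPKM. Such genes have many processed copies in mammalian genomes, and how reads were shared among them is not given in the sources used here, so single values are uncertain. In the high fertility class the list summed to 0.00 to 126.65 FPKM in HMG and 9.78 to 42.02 FPKM in HSG, with a median log2 difference of 0.32.

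**Figure D5:**
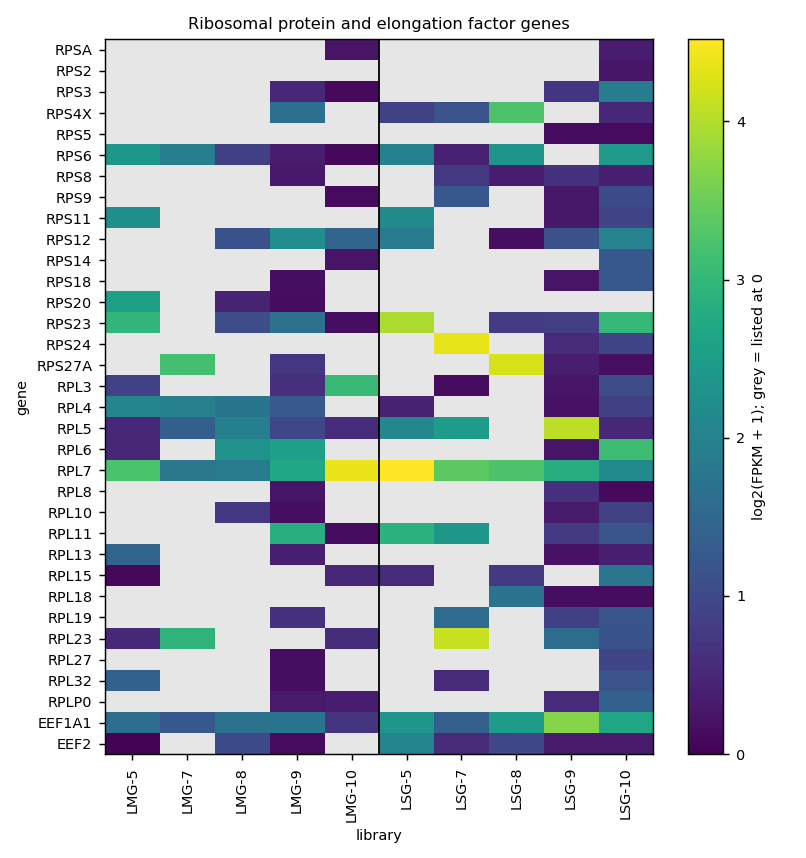
Levels of the 34 ribosomal protein and elongation factor genes as log2(FPKM + 1) in the 5 LMG and 5 LSG libraries, with grey for values listed at 0. LSG-10 has values for 33 of the 34 genes and LMG-7 for 7, while RPL7 and EEF1A1 are above 0 in all 10 libraries.

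Genes abundant in most cells also had a median below that of all features tested, at -0.32 with 6 of 17 above 0, while 9 of the 28 were above 0 in more LMG libraries and 9 in more LSG libraries. HNRNPA1, a protein of RNA packaging, was at 0.20 to 3.68 FPKM in LMG and 0.14 to 6.54 FPKM in LSG, and EIF4A2, a helicase of translation initiation, at 0 to 1.89 and 0.48 to 3.09 FPKM. Of 30 chromatin genes 17 were above 0 in more LMG libraries and 1 in more LSG libraries (KMT2B, named after its values were seen), against 49.8% and 20.1% of the whole table. The 10 tested had a median log2 difference of -0.06, and of -0.60 to -0.03 over the alternatives. DNMT3A, a DNA methyltransferase, was at 0.02 to 0.34 FPKM in LMG and 0.02 to 1.14 FPKM in LSG, and ARID1B, of a remodelling complex, at 0.08 to 0.74 and 0.01 to 0.90 FPKM, both above 0 in all 10 libraries. Without LSG-9 the share of libraries above 0 was larger in LMG for 18 chromatin genes and in LSG for 6, against 52.6% and 32.1% of all features.

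Of the nuclear genes of oxidative phosphorylation 9 were in the table, and 4 were above 0 in more LMG and 1 in more LSG libraries. NDUFS1, a core subunit of complex I, was above 0 in 4 LMG and 3 LSG libraries, at up to 1.68 and 1.49 FPKM. Of the 9 genes from the study's PCR measurements that were in the table, 6 were above 0 in more LMG and 2 in more LSG libraries, and CD38, an enzyme that consumes NAD, was above 0 in 5 LMG libraries, at 0.09 to 0.52 FPKM, and in 2 LSG libraries, at 0.51 and 1.49 FPKM. Of the 11 granulosa cell genes that the study names, some as typical markers and others from its own data, 6 were above 0 in more LMG and 3 in more LSG libraries. ZEB2, a zinc finger repressor, was at 0 to 0.83 FPKM in LMG and 0 to 2.30 FPKM in LSG. As part of these lists was drawn from the same samples, they are not independent evidence of a direction.

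Libraries of the same follicle size were about as alike as libraries of different size. Over the 6058 features tested the mean Spearman correlation was 0.135 between LMG libraries, 0.122 between LSG libraries and 0.119 between the groups (10, 10 and 25 pairs). Over the 426 features above 0 in all 10 libraries it was 0.618, 0.582 and 0.590. The pairs share libraries and the points are features with unlike depth, so these values are a description. In libraries of this kind fewer cells of a type and less RNA per cell cannot be told apart.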

How the data were processed

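The table that the authors deposited holds FPKM with 2 decimals for 20125 features in 30 libraries. Per the study's methods, only unique matches to the goat genome were kept, picard took out duplicates, and Cufflinks gave the FPKM. The aligner and the genome build are not given in the sources used here. An Ensembl annotation is named in the methods, but the deposited table carries NCBI gene numbers. Symbols and spans came from the RefSeq table of ARS1.2, where 17945 numbers matched. No sequence was used here.

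Levels were tested with limma 3.58.1 (R 4.3.3) on log2(FPKM + 1). The fit took all 6 groups together with a robust trended prior, and kept the 6058 features above 0.5 FPKM in at least 5 of 30 libraries, of which 717 have no NCBI number. Benjamini-Hochberg adjustment with a threshold of 0.05 was applied to two-sided p-values. Fold changes understate the change of low features. Single values per library were compared by exact permutation over 252 splits, and libraries above 0 by Fisher's exact test. Fragment depth was estimated from the step at which low values recurred most regularly in 789 genes spanning 900 to 1000 bp, with the span taken as the length. Simulated data with known changes were used to check this fit. Versions were Python 3.11.15, matplotlib 3.10.9, numpy 2.4.6, scipy 1.17.1 and pandas 2.3.3.

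The groups, gene lists and rules were chosen with earlier results of these data known. Named were the 12 genes with a symbol and the lowest p on each side. Up to 8 genes with a symbol were named that were above 0 in all libraries of 1 group and none of the other. The 8 genes with a symbol and the highest mean were added. A name starting with LOC was not counted as a symbol. Each list gave up to 4 members above 0 in the most libraries, plus members with an unadjusted p under 0.05. Some genes that this rule names are not reported here. Markers of granulosa and other cells were named to check the label. Other genes are said to be named after their values were seen, as are the identifiers without a symbol in the closing section. No libraries were identical (0 of 45 pairs), and no column was left out.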

Additional observations from a re-analysis of the deposited data

Results flagged for a closer look

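Of 26 sets of 5 libraries that were checked for a single value far from the others, 2 held one, where chance gives about 1 in 20 sets, or 1.3 sets here. EGFR was at 38.01 FPKM in LSG-5, below the 58.76 to 66.65 FPKM of the other LSG libraries. BRI3BP was at 72.05 FPKM in LSG-9, above the 35.22 to 41.31 FPKM of the other LSG libraries. No test for an origin of these values was made.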

How the results depend on the processing

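The count of features past an adjusted p of 0.05, 0 in the reported fit, was 1 with a pseudocount of 0.1 (MXLOC_242763), 1 with only the 10 LMG and LSG libraries in the fit (MXLOC_1540017), 3 with the filter set over these 10 libraries (MXLOC_1540017, MXLOC_228680 and MXLOC_855725) and 0 to 3 with 1 library left out. C22H3orf62, CDCA7L and MXLOC_1289665 passed without LMG-5, SPATC1L without LMG-7, LOC108635540 and MXLOC_1289665 without LMG-8, MXLOC_242763 without LMG-9 and LOC102187880 without LSG-5. By fold alone, at least 2-fold between group means and with no test, 2507 of 3524 features were counted, 913 (25.9%) higher in LMG and 1594 (45.2%) higher in LSG. Features with an unadjusted p under 0.05 numbered 311, and 1285 of 17446 without a filter and 116 of 1759 with the filter over 10 libraries; for the interaction it was 332, and 830 without a filter. Features above 0 in all LMG and 0 LSG libraries numbered 25, and 35 to 74 with 1 library left out, against 0 to 2 the other way. Leaving out 1 library moved the difference in features above 0 between 1671 and 2821, at 1 FPKM or more between -118 (without LSG-9) and 172, at 10 FPKM or more between -91.8 and -44.0, and in the share without an NCBI gene number between -0.992 and -0.5 percentage points. Without LMG-10 these differences, except that at 1 FPKM or more, had an adjusted p of 0.0423 (exact permutation test). NIPSNAP1 turned from -0.11 to 0.08 after scaling, and was -0.21 to 0.02 with 1 library left out (0.02 without LSG-10). PEX2 turned from 0.10 to -0.16 without LSG-8 and -0.01 without LSG-9, but was at most 0.25 with 1 library left out, and was 0.29 after scaling. The cause was not tested. Libraries with the same number deviated together with correlations of -0.0121 to 0.0243, and 1 of 5 correlated best with its own number. No pairing by number was seen, but values this sparse could miss one. In a fit with the replicate block 0 features passed (311 had an unadjusted p under 0.05), and 0 for the interaction; with the pairing the single-value differences stayed 2176, 65.2, -77.6 and -0.804, with adjusted p of 0.167, 0.875, 0.167 and 0.167 (exact sign-flip test, smallest possible unadjusted p 0.0625). Sparse values limit what could be called: genes near 3 fragments cannot be told from 0.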
